A study of Oryza sativa with 48 samples.

Results

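The genes described here are 7 genes of rice (Oryza sativa) for xyloglucan endotransglucosylase/hydrolases (XTHs): OS08G0237000 (XTH8), OS06G0696400, OS06G0696600, OS06G0697000, OS11G0539200, OS04G0604300 and OS02G0280300. They were listed by identifier. Of the 7, 6 were analysed, out of 37830 genes in the count table, and all 6 passed the filter on low counts that left 21453 genes to be tested. OS02G0280300 was not analysed here. XTHs are secreted enzymes that cut xyloglucan, a hemicellulose of the primary cell wall, and join the cut end to another chain. The reaction can loosen the wall of a growing cell or stiffen a wall that has stopped growing, and family members differ in where and when they are made. XTH8 has been described in rice as a member induced by gibberellin that is needed for normal shoot growth.

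M202 is a rice cultivar without SUB1A, an ethylene response factor that restrains the growth of rice leaves under water and limits their response to gibberellin. M202(Sub1) is the line of M202 background that carries the Sub1 segment, and so differs from M202 in the other genes of that segment as well. Differences between the lines outside that segment were not examined here, so a genotype difference below is not assigned to the segment. Greenhouse plants in pots were held completely under water for 0, 1, 3 or 6 days, and the elongating leaves, the fifth of each plant, were then separated from the lower, non-elongating ones. The 16 groups were elongating leaves of M202(Sub1), non-elongating leaves of M202(Sub1), elongating leaves of M202 and non-elongating leaves of M202, each at day 0 and on days 1, 3 and 6. Each group had 3 replicates, described by the submitters as independent biological ones, 48 libraries in all. Leaves left in air to days 1, 3 and 6 were not analysed here, so a difference from day 0 also holds whatever leaf age and sampling day contributed.

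The libraries held 4873142 to 10369501 counts, with a median of 6854259.5, and replicates correlated at 0.9596 to 0.9809. Levels are given as CPM, the count scaled to a common library size, with the SD over 3 libraries. They carry no correction for gene length, so levels of different genes are not compared. Differences are log2 values of 1 fit of all 16 groups. Their SE and 95% intervals were derived from the difference and the F statistic of its test. They are approximate, most of all where counts are near 0. A difference is called where its p, adjusted over all 21453 genes, is under 0.05. In whole leaves, fewer cells that make a transcript and less transcript per cell cannot be told apart. The 5 green leaf marker genes summed to 2880 to 11440 CPM in submerged libraries and 12110 to 30180 CPM in libraries of day 0. The part of this fall in the XTH differences from day 0 was not tested. The 3 root marker genes summed to at most 6.4 CPM and the 2 shoot meristem marker genes to at most 0.5593 CPM, 1 of these meristem genes being at 0 in every library. The marker names were paired with identifiers from general knowledge, and their relative position on the chromosome matched RefSeq for 1 of 5 leaf, 0 of 3 root and 2 of 2 meristem genes, while 3 of the leaf and 3 of the root symbols were not found there.

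XTH8 (OS08G0237000, chromosome 8) was lower in M202(Sub1) than in M202 in both leaf types on every submerged day, while at day 0 no difference between the genotypes was called. In M202(Sub1) it fell on day 1 in elongating leaves and was above day 0 on days 3 and 6 in both leaf types. In M202 it rose by day 1 in both leaf types, had its highest means on day 3, and was still above day 0 on day 6. No difference between elongating and non-elongating leaves was called on any day in either genotype.

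XTH8 in elongating leaves of M202(Sub1) had 24.6, 27.1 and 34.1 CPM at day 0 and 9.17, 10.3 and 15.9 CPM on day 1, then 64.2, 29.1 and 60.1 CPM on day 3 and 49, 58.7 and 39.1 CPM on day 6. Elongating leaves of M202 had 19.5, 35.2 and 18.1 CPM at day 0 and 63.4, 81.5 and 76.8 CPM on day 1, then 329.6, 215 and 231 CPM on day 3 and 122, 119 and 87.7 CPM on day 6. The libraries of the genotypes overlapped at day 0 and at no later time, with the M202(Sub1) libraries all below those of M202 on days 1, 3 and 6.

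XTH8 in non-elongating M202(Sub1) leaves had 20.4, 36.6 and 18.2 CPM at day 0 and 20.5, 18.5 and 17.5 CPM on day 1, then 61.6, 60.0 and 45.8 CPM on day 3 and 46.4, 51.5 and 31.3 CPM on day 6. Non-elongating M202 leaves had 22.5, 31 and 22.7 CPM at day 0 and 64.7, 58.6 and 96.1 CPM on day 1, then 339, 279 and 149 CPM on day 3 and 191, 133 and 133 CPM on day 6. The M202 libraries of days 3 and 6 in this leaf type were all above every M202(Sub1) library of any day. Within a group the SD was largest in M202 on day 3, where replicate 3 of the non-elongating leaves was below the others.

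**Figure D1:**
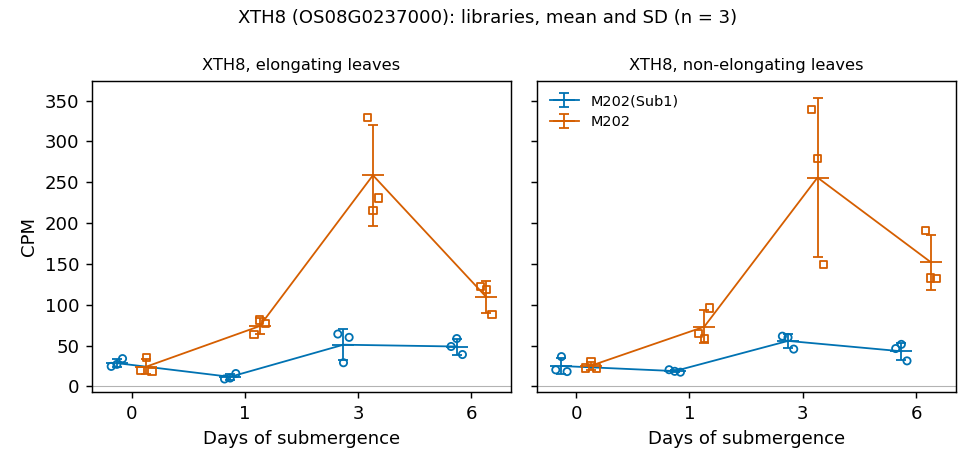
XTH8 level in CPM (vertical axis) against days of submergence for elongating leaves (left) and non-elongating leaves (right) of M202(Sub1) and M202; open symbols are libraries, lines join means and bars are the SD over 3 libraries. Means on day 3 were 51.1 ± 19.2 CPM in M202(Sub1) and 259 ± 61.9 CPM in M202 in elongating leaves, and those of day 0 were 28.6 ± 4.95 CPM in M202(Sub1) and 24.3 ± 9.49 CPM in M202.

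Against day 0, XTH8 in M202(Sub1) fell, with a log2 difference of -1.26 ± 0.31 (log2, SE) on day 1 in elongating leaves (adjusted p = 0.000565). For non-elongating leaves the difference on day 1 was -0.41 ± 0.31 (adjusted p = 0.256). On days 3 and 6 it was above day 0 by 0.84 ± 0.28 and 0.78 ± 0.28 in elongating leaves (adjusted p = 0.00922 and 0.0156) and by 1.15 ± 0.28 and 0.78 ± 0.28 in non-elongating leaves (adjusted p = 0.000556 and 0.0194). The step between days 1 and 3 was a rise of 2.10 ± 0.30 in elongating and 1.57 ± 0.30 in non-elongating leaves, and none was called between days 3 and 6. The rise in elongating leaves on day 3 was lost without day 3 replicate 1 or 3 (0.65 to 0.71, adjusted p 0.0531 to 0.0722). Its rise there on day 6 was lost without day 0 replicate 1 or 2 or day 6 replicate 2 (0.62 to 0.74, adjusted p 0.0502 to 0.0875). The rise in non-elongating leaves on day 6 was lost without day 0 replicate 1 or 3 or day 6 replicate 1 or 2 (0.60 to 0.72, adjusted p 0.0567 to 0.111).

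In M202, XTH8 rose by 1.59 ± 0.28, 3.40 ± 0.29 and 2.16 ± 0.28 (log2, SE) on days 1, 3 and 6 in elongating leaves, with adjusted p of 5.3e-06, 5.38e-14 and 7.85e-09. In non-elongating leaves of M202 the rises were 1.53 ± 0.28, 3.34 ± 0.29 and 2.59 ± 0.28, with adjusted p of 8.52e-06, 5.76e-14 and 6.98e-11. The time course in M202 had its peak inside the sampled days: XTH8 rose by a further 1.81 ± 0.26 in elongating and 1.81 ± 0.26 in non-elongating leaves between days 1 and 3. Between days 3 and 6 it fell, with log2 differences of -1.24 ± 0.25 and -0.75 ± 0.25 (adjusted p = 0.000206 and 0.0206). The second of these falls was lost without day 3 replicate 1 or 2 or day 6 replicate 2 or 3 (-0.70 to -0.52, adjusted p 0.0641 to 0.176), and also in a fit of its 2 groups alone (-0.74, adjusted p 0.0756).

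Between the genotypes, XTH8 was lower in M202(Sub1) than in M202, with log2 differences of -2.63 ± 0.30, -2.33 ± 0.27 and -1.16 ± 0.26 (SE) on days 1, 3 and 6 in elongating leaves. The adjusted p were 2.57e-09, 2.6e-09 and 0.000805. In non-elongating leaves it was lower, with log2 differences of -1.96 ± 0.29, -2.20 ± 0.27 and -1.82 ± 0.27, and adjusted p of 1.71e-06, 1.36e-08 and 1.23e-06. At day 0 the differences were 0.22 (95% interval -0.37 to 0.81) in elongating and -0.01 (-0.60 to 0.58) in non-elongating leaves. All 6 of the called differences held when any 1 library was left out.

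The response of XTH8 to submergence itself differed between the genotypes, M202(Sub1) minus M202, by -2.85 ± 0.42, -2.55 ± 0.39 and -1.38 ± 0.39 on days 1, 3 and 6 in elongating leaves and by -1.94 ± 0.41, -2.18 ± 0.39 and -1.81 ± 0.40 in non-elongating leaves. The adjusted p were 3.23e-06, 1.18e-05 and 0.0222 in elongating leaves and 0.00173, 0.000156 and 0.00228 in non-elongating leaves. The difference on day 6 in elongating leaves was lost without M202(Sub1) elongating day 0 replicate 3, M202(Sub1) elongating day 6 replicate 3, M202 elongating day 0 replicate 1 or 3 or M202 elongating day 6 replicate 1 (-1.30 to -1.20, adjusted p 0.0558 to 0.0808). Between leaf types the differences of XTH8, elongating minus non-elongating, lay between -0.66 (95% interval -1.32 to 0.01, M202(Sub1) on day 1) and 0.19 (-0.39 to 0.77, M202(Sub1) at day 0). The value of M202(Sub1) on day 1 was called in the fit without a filter on low counts (-0.65, adjusted p 0.0394) and in the fit of its 2 groups alone (-0.68, adjusted p 0.0137).

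Ordered by mean, the 16 groups ran from 259 ± 61.9 CPM in elongating leaves of M202 on day 3 to 11.8 ± 3.57 CPM in those of M202(Sub1) on day 1, a 21.9-fold range. The 6 submerged groups of M202 took the first 6 places, the 4 groups of M202(Sub1) on days 3 and 6 the next 4, the 4 groups of day 0 the next 4, and M202(Sub1) on day 1 the last 2. Of the 15 pairs of neighbours in this order, 12 overlapped in their libraries.

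OS06G0696600 (chromosome 6), a further family member, responded to submergence differently in the genotypes. At day 0 it was higher in M202(Sub1) than in M202 in both leaf types. In M202(Sub1) it then fell, in non-elongating leaves on all submerged days, and in M202 it rose on days 3 and 6 in both leaf types. On days 1, 3 and 6 it was lower in M202(Sub1) than in M202 in non-elongating leaves.

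OS06G0696600 in non-elongating M202(Sub1) leaves had 49, 65.1 and 36.1 CPM at day 0 and 22.9, 20.4 and 22.8 CPM on day 1, then 12.5, 18.4 and 15.3 CPM on day 3 and 16.6, 16.8 and 11.3 CPM on day 6. Non-elongating M202 leaves had 24.4, 32 and 28.3 CPM at day 0 and 39.1, 33.1 and 42.2 CPM on day 1, then 77.9, 62.6 and 45.2 CPM on day 3 and 53.8, 39.4 and 37.4 CPM on day 6. The genotypes did not overlap on any day, with M202(Sub1) above M202 at day 0 and below it on days 1, 3 and 6.

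OS06G0696600 in elongating leaves of M202(Sub1) had 31.3, 46.4 and 46.5 CPM at day 0 and 14.3, 14.5 and 22.1 CPM on day 1, then 35.4, 20.5 and 31.4 CPM on day 3 and 28.2, 31.4 and 30.2 CPM on day 6. Elongating leaves of M202 had 13.9, 22.3 and 25.1 CPM at day 0 and 14, 14.1 and 13.3 CPM on day 1, then 47.2, 35.5 and 55.8 CPM on day 3 and 32.2, 27.4 and 29.5 CPM on day 6. Here the M202(Sub1) libraries were all above those of M202 at day 0 and on day 1, all below them on day 3, and overlapped with them on day 6.

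**Figure D2:**
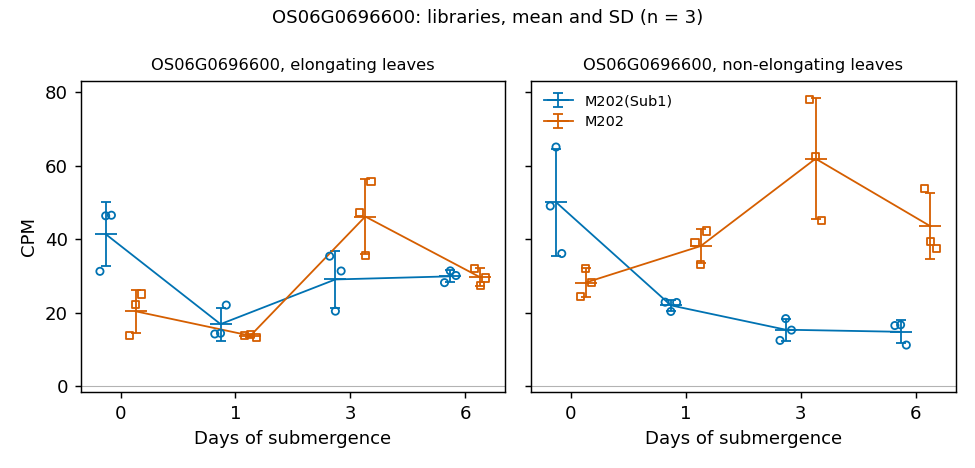
OS06G0696600 level in CPM (vertical axis) against days of submergence for elongating leaves (left) and non-elongating leaves (right) of M202(Sub1) and M202; open symbols are libraries, lines join means and bars are the SD over 3 libraries. In non-elongating leaves the M202(Sub1) means go down over the days, with 50.1 ± 14.5 CPM at day 0 and 14.9 ± 3.12 CPM on day 6, and the M202 mean is highest on day 3, at 61.9 ± 16.4 CPM.

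At day 0, OS06G0696600 was higher in M202(Sub1) than in M202 by 1.01 ± 0.22 (log2, SE) in elongating leaves (adjusted p = 0.00232) and by 0.83 ± 0.21 in non-elongating leaves (adjusted p = 0.0167). In non-elongating leaves it was lower in M202(Sub1), with log2 differences of -0.79 ± 0.22, -2.01 ± 0.23 and -1.55 ± 0.23 on days 1, 3 and 6 (adjusted p = 0.00981, 1.68e-09 and 9.77e-07). In elongating leaves it was lower, with a log2 difference of -0.66 ± 0.21 on day 3 (adjusted p = 0.0266). There the differences of 0.30 ± 0.24 on day 1 and 0.01 ± 0.21 on day 6 were not called.

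Of these 6 calls between genotypes, those in non-elongating leaves on days 3 and 6 held whichever library was left out. The call at day 0 in elongating leaves was lost without M202 elongating day 0 replicate 1 (0.81, adjusted p 0.0558). That of non-elongating leaves was lost without M202(Sub1) non-elongating day 0 replicate 2 or M202 non-elongating day 0 replicate 1 or 3 (0.60 to 0.84, adjusted p 0.0524 to 0.221). The call on day 1 in non-elongating leaves was lost without M202(Sub1) non-elongating day 1 replicate 2 (-0.74, adjusted p 0.0501). The elongating call of day 3 was lost without M202(Sub1) elongating day 3 replicate 2 or M202 elongating day 3 replicate 1 or 3 (-0.65 to -0.47, adjusted p 0.0715 to 0.194).

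Against day 0, OS06G0696600 in M202(Sub1) fell, with log2 differences of -1.19 ± 0.22, -1.71 ± 0.23 and -1.75 ± 0.23 on days 1, 3 and 6 in non-elongating leaves (adjusted p = 1.13e-05, 1.19e-08 and 7.44e-09). In elongating leaves of M202(Sub1) it fell, with a log2 difference of -1.28 ± 0.22 on day 1 (adjusted p = 3.35e-06) and of -0.51 ± 0.21 on day 3 (adjusted p = 0.0405). Its difference there on day 6 was -0.47 ± 0.21 (adjusted p = 0.0571). That difference was called with RLE scaling, without the filter on low counts and in a fit of these groups alone (adjusted p 0.0417, 0.0299 and 0.00543), and in 9 of the 48 fits that left out 1 library. In M202 it rose on day 3 by 1.16 ± 0.22 in elongating and 1.14 ± 0.21 in non-elongating leaves (adjusted p = 1.96e-05 and 1.32e-05). Its rises of day 6 were 0.53 ± 0.22 and 0.63 ± 0.21 (adjusted p = 0.0425 and 0.0109). On day 1 it fell, with a log2 difference of -0.58 ± 0.24 in elongating leaves of M202 (adjusted p = 0.036), while the difference in non-elongating leaves was 0.44 ± 0.22 (adjusted p = 0.0829).

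The smaller of these changes lost their calls when single libraries were left out. The day 3 fall of elongating leaves of M202(Sub1) was lost without day 0 replicate 2 or 3 or day 3 replicate 2 or 3 (-0.57 to -0.31, adjusted p 0.0503 to 0.26). The fall in elongating leaves of M202 on day 1 was lost without day 0 replicate 2 or 3 or day 1 replicate 1, 2 or 3 (-0.59 to -0.41, adjusted p 0.0636 to 0.201). The day 6 rise of non-elongating M202 leaves was lost without day 0 replicate 1 or day 6 replicate 1 (0.45 to 0.53, adjusted p 0.0652 to 0.102). That in elongating leaves of M202 was lost without M202 elongating day 0 replicate 1 or 2, M202 elongating day 6 replicate 1 or 3, M202 non-elongating day 1 replicate 3 or M202 non-elongating day 3 replicate 2 (0.33 to 0.59, adjusted p 0.0541 to 0.258). It was lost also with RLE scaling and with DESeq2 (0.49 and 0.50, adjusted p 0.0591 and 0.0693).

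Between sampled days, OS06G0696600 rose between days 1 and 3 by 1.74 ± 0.23 in elongating leaves of M202, a rise that held whichever library was left out. It also rose over these days by 0.70 ± 0.21 in non-elongating leaves of M202 and by 0.77 ± 0.23 in elongating leaves of M202(Sub1), and between days 3 and 6 it fell, with a log2 difference of -0.64 ± 0.21 in elongating leaves of M202. The second of these 4 calls was lost without day 1 replicate 2 or day 3 replicate 1 (0.52 to 0.61, adjusted p 0.0808 to 0.13). The third was lost without day 1 replicate 1 or 2 or day 3 replicate 1 or 3 (0.61 to 0.71, adjusted p 0.0659 to 0.114), and the fall was lost without day 3 replicate 1 or 3 or day 6 replicate 2 (-0.62 to -0.48, adjusted p 0.0548 to 0.133).

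The response of OS06G0696600 differed between the genotypes, M202(Sub1) minus M202, by -1.62 ± 0.31, -2.85 ± 0.31 and -2.39 ± 0.31 on days 1, 3 and 6 in non-elongating leaves (adjusted p = 0.000403, 7.35e-09 and 5.12e-07). In elongating leaves it differed by -1.67 ± 0.31 on day 3 and -0.997 ± 0.31 on day 6 (adjusted p = 0.000218 and 0.0383), and the difference on day 1, -0.70 ± 0.33, was not called (adjusted p = 0.17). The value of day 6 in elongating leaves was lost without M202(Sub1) elongating day 0 replicate 2 or 3, M202(Sub1) elongating day 6 replicate 1, 2 or 3, M202 elongating day 0 replicate 1 or M202 elongating day 6 replicate 1 or 3 (-1.03 to -0.80, adjusted p 0.0564 to 0.146). The M202(Sub1) level at day 0 enters all of these differences, and it was the higher of the genotypes there.

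OS06G0696600 also differed between leaf types. In M202(Sub1) it was higher in elongating than in non-elongating leaves by 0.92 ± 0.23 on day 3 and 1.01 ± 0.23 on day 6 (adjusted p = 0.00221 and 0.000979). In M202 it was lower in elongating leaves, with a log2 difference of -1.47 ± 0.23 on day 1 (adjusted p = 6.64e-07) and of -0.56 ± 0.21 on day 6 (adjusted p = 0.0474). The last value lost its call in 20 of the 48 fits that left out 1 library, 16 of them of other groups (-0.62 to -0.37, adjusted p 0.0501 to 0.28), and with a replicate block. In M202(Sub1) the response of elongating leaves exceeded that of non-elongating leaves by 1.20 ± 0.31 on day 3 and 1.28 ± 0.31 on day 6 (adjusted p = 0.00551 and 0.00275). In M202 it was below it, with a difference of -1.02 ± 0.32 on day 1 (adjusted p = 0.0222), a value lost without M202 elongating day 0 replicate 2 or 3 or M202 non-elongating day 0 replicate 1 (-0.95 to -0.85, adjusted p 0.054 to 0.0904).

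**Figure D3:**
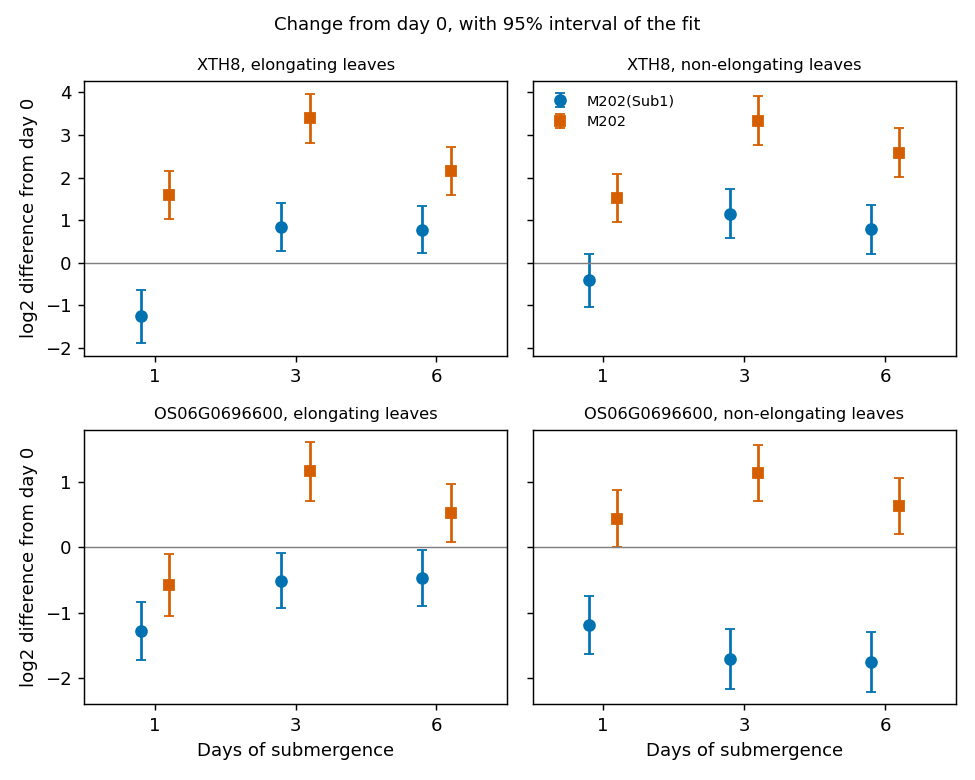
Log2 difference from day 0 (vertical axis) on days 1, 3 and 6 for XTH8 (upper panels) and OS06G0696600 (lower panels) in elongating leaves (left) and non-elongating leaves (right); points are fitted values for M202(Sub1) and M202 and bars their 95% intervals. The M202 values lie above the M202(Sub1) values in every panel and on every day, with XTH8 on day 3 in elongating leaves at 0.84 in M202(Sub1) and 3.40 in M202.

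OS06G0697000 (chromosome 6) was higher in elongating than in non-elongating leaves of M202(Sub1) at day 0 and on days 1 and 3, and of M202 at day 0, and its level in elongating leaves had fallen by day 6 in both genotypes. No difference between the genotypes was called for it on any day. OS06G0697000 in elongating leaves of M202(Sub1) had 82.7, 84.1 and 80.4 CPM at day 0 and 95, 103 and 135 CPM on day 1, then 100.3, 28.2 and 82.5 CPM on day 3 and 31.4, 40.6 and 21.8 CPM on day 6. OS06G0697000 in non-elongating M202(Sub1) leaves had 25.2, 40.8 and 21.7 CPM at day 0 and 50.6, 39.1 and 38.1 CPM on day 1, then 33.3, 40.7 and 26.3 CPM on day 3 and 18.4, 21.3 and 6.93 CPM on day 6. All elongating libraries of this line were above the non-elongating ones at day 0 and on days 1 and 6, and on day 3 replicate 2 made the leaf types overlap. Elongating leaves of M202 had 22.7, 69.8 and 43.4 CPM at day 0 and 60.1, 55.8 and 54.2 CPM on day 1, then 62.9, 37.5 and 37.8 CPM on day 3 and 18.1, 20.0 and 19.1 CPM on day 6. Non-elongating M202 leaves had 30.7, 22.2 and 10.8 CPM at day 0 and 29.6, 18.7 and 57.4 CPM on day 1, then 40.3, 43.3 and 19.8 CPM on day 3 and 40.4, 10.6 and 21.3 CPM on day 6. In M202 the leaf types overlapped on every day. Replicates spread widely in some groups, as in elongating leaves of M202 at day 0.

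The difference of OS06G0697000 between leaf types, elongating minus non-elongating, was 1.49 ± 0.39, 1.38 ± 0.39, 1.08 ± 0.39 and 1.01 ± 0.43 at day 0 and on days 1, 3 and 6 in M202(Sub1) (adjusted p = 0.0027, 0.00488, 0.041 and 0.0969). The value of day 6, close in size to that of day 3, was called without the filter on low counts and in a fit of its groups alone (adjusted p 0.00759 and 0.0229). In M202 it was 1.08 ± 0.41, 0.69 ± 0.39, 0.41 ± 0.39 and -0.35 ± 0.41 (adjusted p = 0.0393, 0.154, 0.45 and 0.594). Between day 0 and day 6 it fell, with a log2 difference of -1.39 ± 0.39 in elongating leaves of M202(Sub1) and of -1.27 ± 0.40 in those of M202 (adjusted p = 0.00214 and 0.00737). Between days 3 and 6 the differences were -1.16 ± 0.38 and -1.27 ± 0.40 (adjusted p = 0.0347 and 0.0147). In non-elongating leaves of M202(Sub1) it was -0.91 by day 6 and -1.10 between days 3 and 6, neither of them called. Both were called without the filter on low counts (adjusted p 0.00848 and 0.00859) and in fits of their groups alone (adjusted p 0.0178 and 0.0144). Non-elongating M202 leaves had means of 21.2 CPM at day 0 and 24.1 CPM on day 6. In elongating leaves its M202(Sub1) libraries were all above those of M202 at day 0 and on days 1 and 6, and the difference on day 1 was 0.97 ± 0.37, which was not called (adjusted p = 0.0589). That difference passed the threshold with upper-quartile scaling, without the filter on low counts and in a fit of these groups alone (adjusted p = 0.0488, 0.00296 and 3.19e-06).

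Of the 8 calls for OS06G0697000, 3 held under all alternatives, namely the leaf type differences of M202(Sub1) at day 0 and on day 1 and the fall by day 6 in its elongating leaves. The fall by day 6 in elongating leaves of M202 was lost without day 0 replicate 2 (-0.81, adjusted p 0.132). The leaf type difference of M202 at day 0 was lost without M202 elongating day 0 replicate 2 or 3 or M202 non-elongating day 0 replicate 2 or 3 (0.63 to 1.12, adjusted p 0.0622 to 0.335). That of M202(Sub1) on day 3 was lost without M202(Sub1) elongating day 3 replicate 1 or 3 or M202(Sub1) non-elongating day 3 replicate 1 or 3 (0.74 to 1.07, adjusted p 0.101 to 0.254), and both also with DESeq2 (1.11 and 1.05, adjusted p 0.0581 and 0.0877). The fall between days 3 and 6 in M202(Sub1) was lost without day 3 replicate 1 or 3 or day 6 replicate 1 or 3 (-1.16 to -0.82, adjusted p 0.0865 to 0.231, and with DESeq2 -1.18, adjusted p 0.0603). In M202 the fall was lost without day 3 replicate 1 or day 6 replicate 1 (-1.24 to -0.98, adjusted p 0.0527 to 0.112).

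OS06G0696400 (chromosome 6) had few counts, at most 63 in a library and 0 in 4 libraries. It was lower in elongating than in non-elongating leaves on days 3 and 6 in both genotypes, and it rose by day 3 in non-elongating leaves of both. OS06G0696400 in elongating leaves of M202(Sub1) had 0.16, 0.833 and 0 CPM at day 0 and 1.63, 0 and 0.278 CPM on day 1, then 0.983, 1.48 and 2.14 CPM on day 3 and 0.356, 1.23 and 0.746 CPM on day 6. OS06G0696400 in non-elongating M202(Sub1) leaves had 0.143, 1.07 and 0.344 CPM at day 0 and 1.99, 1.83 and 1.29 CPM on day 1, then 4.55, 4.52 and 7.84 CPM on day 3 and 2.9, 2.42 and 5.02 CPM on day 6. On days 3 and 6 every elongating library of this line was below every non-elongating one. Elongating leaves of M202 had 0.841, 0 and 0.342 CPM at day 0 and 1.42, 1.01 and 0 CPM on day 1, then 1.24, 0.995 and 0.843 CPM on day 3 and 0.305, 0.576 and 0.138 CPM on day 6. Non-elongating M202 leaves had 1.51, 1.41 and 1.12 CPM at day 0 and 3.67, 0.95 and 2.95 CPM on day 1, then 8.63, 5.85 and 3.83 CPM on day 3 and 1.8, 1.37 and 1.77 CPM on day 6. In M202 the elongating libraries were all below the non-elongating ones at day 0 and on days 3 and 6.

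By day 3, OS06G0696400 rose in non-elongating leaves by 3.39 ± 0.72 in M202(Sub1) and 2.16 ± 0.63 in M202 (adjusted p = 9.07e-05 and 0.0034). It was still above day 0 on day 6 in non-elongating M202(Sub1) leaves, by 2.69 ± 0.74 (adjusted p = 0.00215). In M202 it fell, with a log2 difference of -1.88 ± 0.60 between days 3 and 6 (adjusted p = 0.0138). This call was lost without day 3 replicate 1 or day 6 replicate 2 (-1.76 to -1.57, adjusted p 0.0555 to 0.0776). In elongating leaves the rise by day 3 in M202(Sub1), 2.14 ± 0.83 (adjusted p = 0.028), was lost without day 0 replicate 1 or 3 or day 3 replicate 3 (1.56 to 1.84, adjusted p 0.0953 to 0.139), and it was 4.07 without day 0 replicate 2. At day 0 these leaves had 1, 6 and 0 counts, a mean under a floor of 3 counts per library. The size of this rise is therefore not resolved. Without day 0 replicate 2 of the non-elongating leaves, the rises of M202(Sub1) on days 3 and 6 were 4.47 and 3.77. No difference between the genotypes and no difference between their responses was called.

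Between leaf types, elongating minus non-elongating, OS06G0696400 was lower, with log2 differences of -1.84 ± 0.61 and -2.10 ± 0.67 on days 3 and 6 in M202(Sub1) (adjusted p = 0.0238 and 0.0223) and of -2.55 ± 0.65 and -2.19 ± 0.78 in M202 (adjusted p = 0.00168 and 0.0363). The value of M202 on day 3 held whichever library was left out. That of M202(Sub1) on day 3 was lost without M202(Sub1) elongating day 3 replicate 1 or 2 or M202(Sub1) non-elongating day 3 replicate 3 (-1.81 to -1.54, adjusted p 0.0634 to 0.113). The value of day 6 was lost without M202(Sub1) elongating day 6 replicate 1 or 3 or M202(Sub1) non-elongating day 6 replicate 3 (-2.08 to -1.74, adjusted p 0.0639 to 0.118). The value of M202 on day 6 was lost without M202 elongating day 6 replicate 1 or 3 or M202 non-elongating day 6 replicate 1 or 3 (-2.13 to -1.89, adjusted p 0.0688 to 0.124). Its elongating leaves had 3, 5 and 1 counts there, a mean just under the floor of 3 counts per library. The size of that difference is therefore not resolved.

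The 3 members on chromosome 6 lie close together by identifier, with 3 identifiers of the table between OS06G0696400 and OS06G0696600 and 1 between OS06G0696600 and OS06G0697000. Such neighbours can be near copies that share reads, which these counts do not resolve. Their patterns differed, since OS06G0697000 was higher and OS06G0696400 lower in elongating leaves, and between genotypes a response difference was called for OS06G0696600 alone among these 3; whether that difference is larger for it than for its neighbours was not tested.

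OS11G0539200 (chromosome 11) had most of its counts in elongating leaves, where it was highest on day 3. Its counts were low, at most 36 in a library and 0 in 18 of 48 libraries. In elongating leaves of M202(Sub1) it had 6, 13 and 4 counts at day 0, 0, 3 and 2 on day 1, 22, 8 and 22 on day 3 and 2, 6 and 2 on day 6. Those of M202 had 2, 18 and 4 counts at day 0, 8, 10 and 10 on day 1, 36, 36 and 20 on day 3 and 12, 4 and 4 on day 6. In non-elongating leaves no library of either genotype had more than 4 counts, and the 6 libraries of M202 at day 0 and on day 1 had none. In CPM, the means on day 3 were 2.3 ± 0.991 and 0.116 ± 0.201 in elongating and non-elongating leaves of M202(Sub1), and 4.97 ± 1.4 and 0.352 ± 0.306 in those of M202.

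Non-elongating leaves had at most 8 counts of OS11G0539200 over the 3 libraries of a group, so leaf types are compared by the ratio of summed counts, with its exact 95% counting interval. The adjusted p beside them come from the fit of all 16 groups and test for any difference. They are not p of the printed ratios or lower bounds. In M202(Sub1) it was 10.8-fold higher in elongating leaves at day 0 (2.67 to 94.7, from 23 and 2 counts, adjusted p = 0.0201) and 21.3-fold higher on day 3 (5.61 to 181, from 52 and 2 counts, adjusted p = 0.0017). No leaf type difference was called in M202(Sub1) on days 1 and 6. On day 1 there were 5 and 2 counts, with both means under a floor of 3 counts per library. On day 6 the ratio was 3.71 (0.791 to 34.8, from 10 and 2 counts). In M202 it was 13.4-fold higher on day 3 (6.51 to 31.9, from 92 and 8 counts, adjusted p = 0.000202) and 9.43-fold higher on day 6 (2.29 to 83.2, from 20 and 2 counts, adjusted p = 0.0414). At day 0 and on day 1 it was at least 2.58-fold and 3.27-fold higher in elongating leaves of M202, against a floor of 3 counts per library in non-elongating leaves without counts (adjusted p = 0.00134 and 0.000469). Of the counts above 0 of this gene 93.3% were even, and if each pair of reads gave 2 counts, a floor of 6 counts would lower these bounds to 1.29-fold and 1.64-fold and the intervals above would be too narrow.

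These leaf type differences rest on few libraries. At day 0 in M202 the elongating leaves had 2, 18 and 4 counts, so the bound of 2.58-fold rests mainly on replicate 2. The other elongating libraries had 0.42 and 0.684 CPM, beside a floor of 0.488 CPM. Without replicate 2 the difference was still called in the fit (adjusted p 0.0326). The non-elongating leaves had no count in any library, so that kept call is no check on the bound. In M202(Sub1) the non-elongating counts came from replicate 2 alone at day 0 and on day 3, and in M202 from replicate 1 alone on day 6. Leaving those libraries out left groups with no count and enlarged the fitted differences. That these were still called (adjusted p 0.0103, 0.0016 and 0.0268) is therefore no check on them. The call at day 0 in M202(Sub1) was lost without M202(Sub1) elongating day 0 replicate 2 or M202(Sub1) non-elongating day 0 replicate 1 or 3 (adjusted p 0.0761 to 0.109). That of day 6 in M202 was lost without M202 elongating day 6 replicate 1 or 3 or M202 non-elongating day 6 replicate 2 or 3 (adjusted p 0.0514 to 0.194) and with DESeq2 (adjusted p 0.0557).

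Over time, OS11G0539200 rose in elongating leaves between days 1 and 3 by 3.14 ± 0.86 in M202(Sub1) and 1.92 ± 0.67 in M202 (adjusted p = 0.0105 and 0.0316). It fell between days 3 and 6, with differences of -2.44 ± 0.77 and -2.68 ± 0.69 (adjusted p = 0.0278 and 0.00287). Of these only the fall in M202 held under all alternatives. The rise in M202(Sub1) was lost without day 1 replicate 1 (2.72, adjusted p 0.0503). It starts from 0, 3 and 2 counts on day 1, a mean under the floor of 3 counts per library. The size of this rise is therefore not resolved. The rise in M202 was lost without day 1 replicate 1, 2 or 3 or day 3 replicate 1 or 2 (1.72 to 2.06, adjusted p 0.0616 to 0.12), without the filter on low counts and with DESeq2 (1.92 and 1.93, adjusted p 0.0541 and 0.0536). The fall in M202(Sub1) was lost without day 3 replicate 1 or 3 or day 6 replicate 1 or 3 (-2.33 to -2.16, adjusted p 0.0765 to 0.112), and it was -3.04 without day 6 replicate 2. Against day 0 the rise of 1.90 ± 0.68 in elongating M202 leaves on day 3 (adjusted p = 0.0175) was lost without day 0 replicate 1 or 3 or day 3 replicate 2 (1.53 to 1.75, adjusted p 0.0505 to 0.0884), and it was 3.11 without day 0 replicate 2. In non-elongating leaves of M202 a difference between day 3 and day 0 was called on 4, 4 and 0 counts on day 3 and none at day 0 (adjusted p = 0.0367). It is given without a fold because both group means lay under the floor, and its call was lost without any day 0 replicate or day 3 replicate 1 or 2 (adjusted p 0.0732 to 0.0978).

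OS04G0604300 (chromosome 4) also had few counts, at most 62 in a library, and every count was an even number. OS04G0604300 in elongating leaves of M202(Sub1) had 0.319, 2.5 and 0.846 CPM at day 0 and 0.408, 0 and 0.278 CPM on day 1, then 1.97, 1.78 and 5.47 CPM on day 3 and 3.32, 6.96 and 2.99 CPM on day 6. The other 3 leaf and genotype series lay within the same range, with group means of 1.23 ± 0.257, 2.06 ± 1.12, 2.85 ± 0.067 and 3.18 ± 2.87 CPM at day 0 and on days 1, 3 and 6 in non-elongating leaves of M202(Sub1). The means were 0.966 ± 0.876, 0.837 ± 0.776, 2.3 ± 0.72 and 1.48 ± 0.882 CPM in elongating and 1.33 ± 1.1, 1.69 ± 0.162, 2.88 ± 1.1 and 1.39 ± 1.17 CPM in non-elongating leaves of M202. All 4 of its calls concern elongating leaves of M202(Sub1). They include a fall with a difference of -2.503 ± 1.03 on day 1 and a rise of 1.82 ± 0.67 on day 6 against day 0 (adjusted p = 0.0362 and 0.019). The others are a rise of 3.81 ± 0.92 between days 1 and 3 (adjusted p = 0.00303), and a difference of -3.23 ± 0.99 from non-elongating leaves on day 1 (adjusted p = 0.0106). The rise between days 1 and 3 held under all alternatives run, at 3.16 without day 1 replicate 2 and 3.08 without day 3 replicate 3. On day 1, however, elongating leaves of M202(Sub1) had only 2, 0 and 2 counts, under the floor of 3 counts per library. The fall on day 1, the rise between days 1 and 3 and the leaf type difference all use this group, so their sizes are not resolved. The fall on day 1 was lost without day 0 replicate 2 or day 1 replicate 2 or 3 (-2.81 to -1.46, adjusted p 0.0637 to 0.336). The rise on day 6 was lost without day 0 replicate 1 or 3 or day 6 replicate 2 (1.33 to 1.61, adjusted p 0.0764 to 0.135) and was 2.87 without day 0 replicate 2. The leaf type difference was lost without M202(Sub1) elongating day 1 replicate 2 or M202(Sub1) non-elongating day 1 replicate 3 (-2.87 to -2.57, adjusted p 0.0548 to 0.0714).

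**Figure D4:**
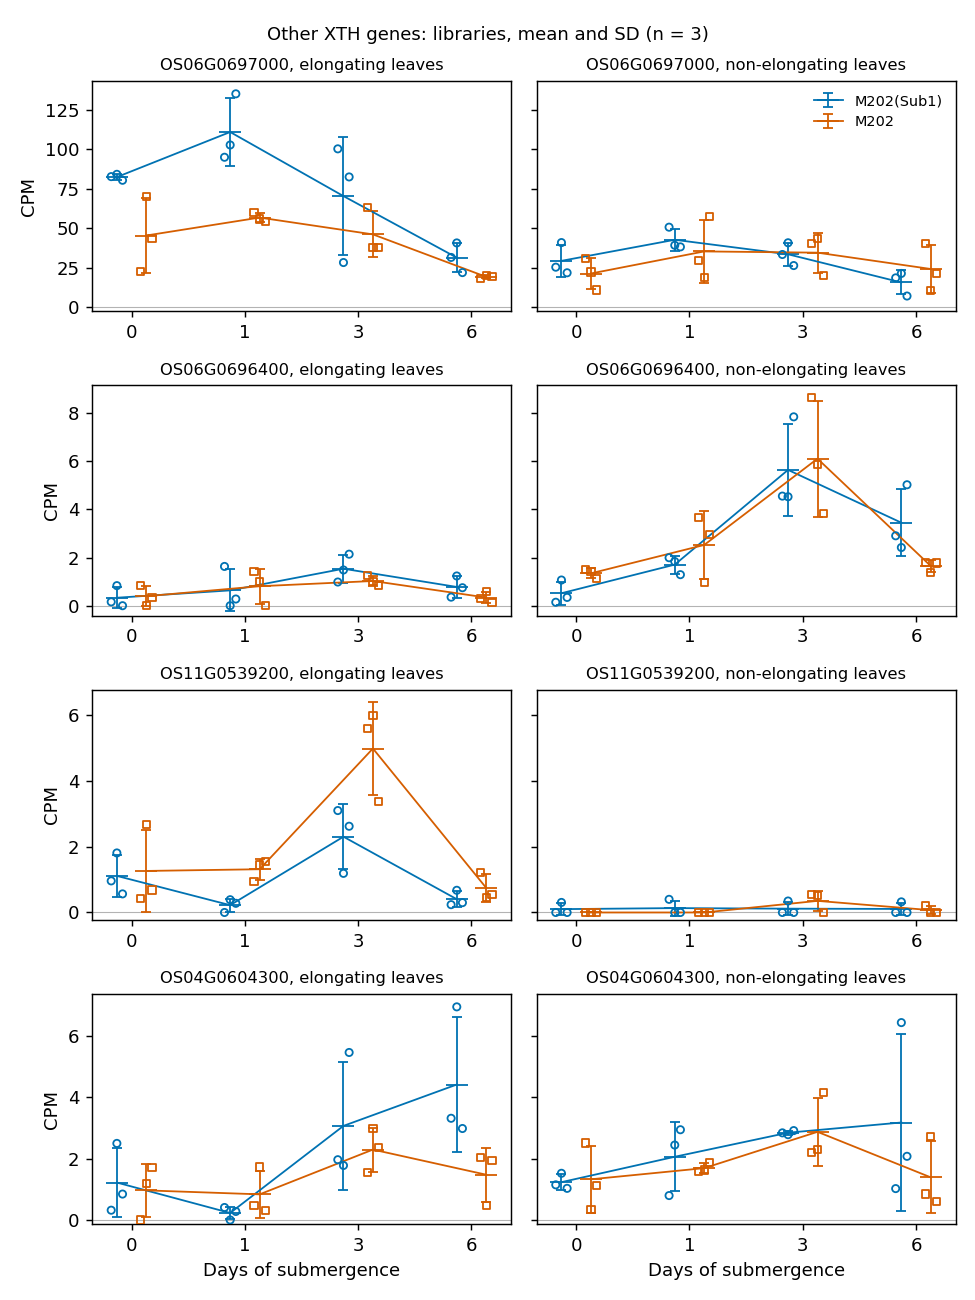
Levels in CPM (vertical axes) of OS06G0697000, OS06G0696400, OS11G0539200 and OS04G0604300, from top to bottom, against days of submergence in elongating leaves (left) and non-elongating leaves (right) of M202(Sub1) and M202; open symbols are libraries, lines join means and bars are the SD over 3 libraries. OS11G0539200 lies near 0 in all non-elongating libraries, at no more than 0.548 CPM, and OS06G0696400 reaches 8.63 CPM on day 3 in non-elongating M202 leaves.

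**Figure D5:**
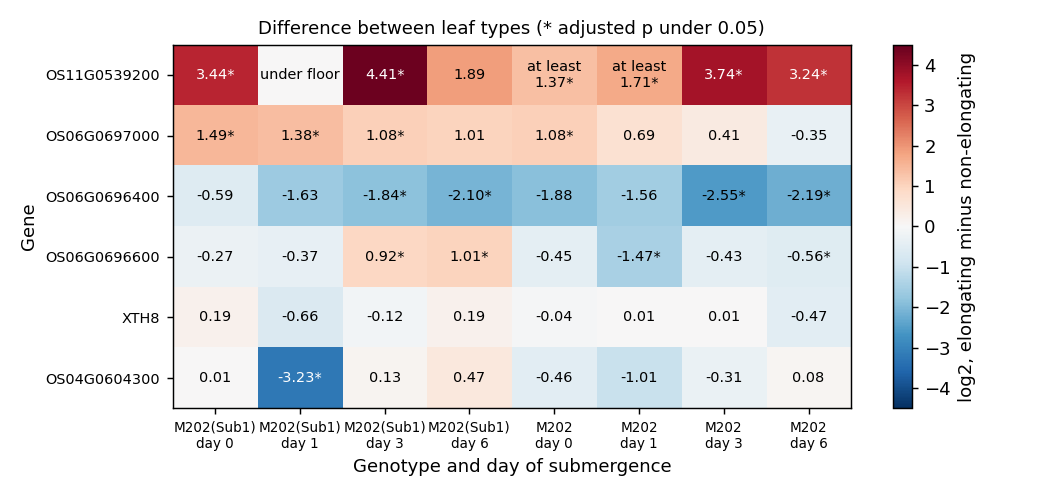
Log2 difference between elongating and non-elongating leaves (colour and number) for the 6 genes (rows) in M202(Sub1) and M202 at day 0 and on days 1, 3 and 6 (columns), with a star where the adjusted p was under 0.05. For OS11G0539200 the number is the log2 ratio of summed counts, or its lower bound against 3 counts per library where non-elongating leaves had none. For this gene 1 cell is left without a number where both means lay under that floor. The elongating mean also lay under it for OS06G0696400 at day 0 in both genotypes and on day 6 in M202. The same holds for OS04G0604300 on day 1 in M202(Sub1), and the sizes of these fitted numbers are not resolved. Stars are absent from the XTH8 row, positive for OS11G0539200 and OS06G0697000 and negative for OS06G0696400.

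Calls against day 0 over the 6 genes are set beside the share over all tested genes. In elongating leaves of M202(Sub1), 3, 3 and 3 of 6 were called on days 1, 3 and 6, beside 55.3%, 52.6% and 53.3% of all tested genes. In non-elongating leaves of M202(Sub1) it was 1, 3 and 3, beside 56%, 52.3% and 51%. In elongating leaves of M202 it was 2, 3 and 3, beside 53.8%, 49.9% and 53.5%. Non-elongating leaves of M202 had 1, 4 and 2, beside 52.5%, 51.2% and 53.4%. Over the 72 pairs of gene and comparison, 21 rises and 10 falls were called, 43.1% beside 52.9% over all genes. XTH8 was called in 11 and OS06G0696600 in 10 of 12 comparisons, and each other gene in 2 to 4. OS11G0539200, OS06G0696400 and OS04G0604300 had medians of 2, 7.5 and 12 counts per library, and the part of low counts in the total was not tested. All comparisons of a genotype and leaf type share its libraries of day 0.

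Between genotypes, 1, 1, 2 and 1 of the 6 genes were called in elongating leaves at day 0 and on days 1, 3 and 6, beside 5.3%, 20.3%, 14.7% and 20.4% of all tested genes. In non-elongating leaves 1, 2, 2 and 2 were called, beside 2.74%, 15%, 13.8% and 15.3%. All 12 of these calls were those of XTH8 and OS06G0696600. For OS11G0539200 none was called, but its counts were low. Its elongating M202(Sub1) libraries lay below those of M202 on day 1, at 0 to 0.387 against 0.946 to 1.55 CPM. On day 3 they also lay below, at 1.19 to 3.09 against 3.37 to 5.97 CPM, and at day 0 and on day 6 the genotypes overlapped. For the genotypes' responses, 1, 2 and 2 of 6 were called in elongating leaves on days 1, 3 and 6, beside 11.2%, 5.63% and 6.39%. In non-elongating leaves 2, 2 and 2 were called, beside 5.47%, 5.7% and 6.39%. All 11 were lower in M202(Sub1) and again those of XTH8 and OS06G0696600. The median over the 6 genes lay between -1.44 and 0.06 in these 6 comparisons, and over all tested genes between -0.04 and -0.0038.

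Between leaf types, 2, 2, 4 and 2 of the 6 genes were called in M202(Sub1) at day 0 and on days 1, 3 and 6, beside 29.8%, 29.7%, 21.4% and 17.8% of all tested genes. In M202 the numbers were 2, 2, 2 and 3, beside 29.5%, 40.6%, 34.1% and 23.1%. The members went both ways, with 12 calls higher and 7 lower in elongating leaves. For the leaf types' responses, 0, 1 and 1 of 6 were called on days 1, 3 and 6 in M202(Sub1), beside 14%, 13.7% and 14.1%, and 1, 0 and 0 in M202, beside 15.8%, 13.7% and 10.4%.

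Between sampled days, 4 and 2 of the 6 genes were called between days 1 and 3 and between days 3 and 6 in elongating leaves of M202(Sub1), beside 13.1% and 13.9% of all tested genes. Its non-elongating leaves had 1 and 0, beside 16.9% and 7.43%. Elongating leaves of M202 had 3 and 4, beside 22.3% and 28.3%, and its non-elongating leaves 2 and 2, beside 16.3% and 29.2%. All 10 calls between days 1 and 3 were rises, and all 8 between days 3 and 6 were falls.

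Other genes of wall building were counted as lists for context. Cellulose synthases of the primary wall make its cellulose microfibrils, and 6 of these genes were tested. They fell in 64 and rose in 3 of 72 pairs of gene and comparison against day 0. That is 93.1%, beside 52.9% of all tested genes called, with list medians of -2.53 to -0.58 (log2). They were lower in M202(Sub1) than in M202 in 25 of 48 pairs and higher in none, 52.1% beside 13.4%. Cellulose synthase-like C genes, whose enzymes make the glucan backbone of xyloglucan, rose in 13 and fell in 13 of 48 pairs against day 0, over 4 of 6 genes that were tested, 54.2% beside 52.9%. Their response was lower in M202(Sub1) than in M202 in 7 of 24 pairs and higher in 1, 33.3% beside 6.79%. The name of 1 of these 4 genes, OS09G0428000, did not match RefSeq by position, and without it 6 rises and 10 falls were called in 36 pairs against day 0 and 3 lower and 1 higher responses in 18 pairs. Alpha expansins, which loosen walls without cutting them, rose in 12 and fell in 13 of 48 pairs against day 0, over 4 of 10 genes that were tested, 52.1% beside 52.9%. Their response was lower in M202(Sub1) in 3 of 24 pairs and higher in none, 12.5% beside 6.79%.

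For each of the 6 genes, the other gene with the most similar pattern over the 16 group means of log2 CPM was found among those with a mean of at least 10 CPM. The Pearson correlation was 0.902 for XTH8 with OS01G0750500, 0.959 for OS06G0696400 with OS10G0371000 and 0.789 for OS06G0696600 with OS02G0148100. It was 0.891 for OS06G0697000 with OS01G0286100, 0.942 for OS11G0539200 with OS03G0651000 and 0.866 for OS04G0604300 with OS01G0727100. The 16 means share libraries and sampling days, and each value is the highest among 11396 or 11397 genes searched. Among the members, XTH8 and OS06G0696600 correlated at 0.479 over the 16 means and 0.705 over the 12 submerged means, and XTH8 and OS06G0697000 at -0.318 and -0.416.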

How the data were processed

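RNA-seq counts per gene were deposited as whole numbers for 48 libraries of total RNA, sequenced as pairs, per the labels' protocols; STAR, featureCounts, DESeq2 and the rice genome build IRGSP-1.0 are named in the submitters' processing notes, without versions. The deposited counts are unnormalized. Between 62.3% and 73.8% of the counts above 0 in a library were even numbers, as were 50% to 100% of those of the 6 genes; how mates or paralogs were counted is not given in the sources used here. Strand, read length and counting settings are not given there either.

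From these counts, genes passing the filter of edgeR 4.0.16 (R 4.3.3; minimum count 10, minimum total 15) were scaled by TMM and fitted with 1 coefficient for each of the 16 groups, with no filter on samples. The quasi-likelihood F test, two-sided, with Benjamini-Hochberg adjustment over 21453 genes in each of 48 comparisons and a threshold of 0.05, gave the calls; the fit had 32 residual degrees of freedom. CPM uses the TMM-scaled totals, and log2 CPM a prior count of 2. Floors are 3 counts per library and, like intervals from counting, cover counting error only. The test was checked on simulated counts. Other settings tried were scaling by RLE or by upper quartiles, omitting the filter, testing with DESeq2 1.42.0, adding the replicate number as a block, fitting the compared groups by themselves, and leaving out each library; the last kept the genes and trended dispersion of all 48 libraries.

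All 7 genes are named, with 1 most similar gene for each of the 6 tested, and wall genes were counted as lists only. The identifiers of listed wall genes and of XTH8 were paired with names from general knowledge and set against RefSeq by relative position on the chromosome, within 3 percentile points, which held for XTH8 and for 4 of 6 cellulose synthase-like C, 6 of 6 cellulose synthase and 10 of 10 expansin genes; of the 4 tested cellulose synthase-like C genes 3 matched. Ratios of summed counts, a floor of 6 counts and the list without its unmatched gene were added after seeing the data. The genes and lists were chosen with earlier results of these data known. OS02G0280300, sequences and gene coordinates are not analysed here.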

Additional observations from a re-analysis of the deposited data

Results flagged for a closer look

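The tests of a difference between responses singled out XTH8 (OS08G0237000) and OS06G0696600, whose change under submergence was not the same in the genotypes or, for OS06G0696600, in the leaf types. For XTH8 the response of M202(Sub1) minus that of M202 was -2.85, -2.55 and -1.38 (log2) on days 1, 3 and 6 in elongating leaves and -1.94, -2.18 and -1.81 in non-elongating leaves. For OS06G0696600 it was -1.67 on day 3 and -0.997 on day 6 in elongating leaves, and -1.62, -2.85 and -2.39 on days 1, 3 and 6 in non-elongating leaves. The response of elongating minus that of non-elongating leaves of OS06G0696600 in M202(Sub1) was 1.20 on day 3 and 1.28 on day 6, and in M202 it was -1.02 on day 1. Each is a contrast of the edgeR quasi-likelihood fit with an adjusted p under 0.05, and leaving out 1 library ended the call for XTH8 and OS06G0696600 in elongating leaves on day 6 and for OS06G0696600 between leaf types of M202 on day 1. Single outlying samples were not tested in groups of 3 libraries.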

How the results depend on the processing

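Of the 94 calls over the 6 genes and 48 comparisons, 55 held under every alternative run, and no difference that was called changed sign. By gene, 24 of 29 calls held for XTH8, 18 of 32 for OS06G0696600, 4 of 9 for OS06G0696400, 3 of 8 for OS06G0697000, 5 of 12 for OS11G0539200 and 1 of 4 for OS04G0604300. Other differences were called only under an alternative: 16 without the filter on low counts, 17 in the fit of the groups compared alone, 3 with RLE scaling, 1 each with upper-quartile scaling and DESeq2, and 53 over all fits that left out 1 library. The count of differences between leaf types' responses was 5 without a filter on low counts, against 3 with it; the cause was not tested. With 1 library left out, the counts ranged over 28 to 33 (31 with all libraries) against day 0, 11 to 13 (12) between genotypes, 16 to 21 (19) between leaf types, 15 to 20 (18) between sampled days, 9 to 11 (11) for the genotypes' responses and 2 to 4 (3) for the leaf types' responses. The replicate numbers did not pair the libraries: the correlation of deviations of same-numbered libraries lay between -0.151 and 0.157, and was above 0.1 for every number in 1 of 36 comparisons. With a replicate block 1 call was lost, OS06G0696600 between leaf types of M202 on day 6 (-0.56, adjusted p 0.0541), and none was gained. Fitting the groups compared alone, which leaves fewer libraries to estimate the spread, called fewer of all genes in 32 of 48 comparisons, and by over 1.5 times in 6 of them: 386 against 588 between genotypes in non-elongating leaves at day 0 and 1336 against 3284 on day 6, 2779 against 4948 between leaf types of M202 on day 6, 3498 against 6263 between days 3 and 6 in non-elongating leaves of M202, 486 against 1371 for the genotypes' responses in non-elongating leaves on day 6, and 1080 against 2240 for the leaf types' responses in M202 on day 6. In that setting 215 differences of the 6 genes could be fitted. The lower bounds for OS11G0539200 in M202 were 1.29-fold and 1.64-fold with a floor of 6 counts, and without OS09G0428000 the share of cellulose synthase-like C calls was 8.33% against 21.9% between genotypes and 20.8% against 40.6% between leaf types. Between genotypes, 2 higher and 0 lower calls were left, against 2 higher and 5 lower with that gene. Between leaf types, 3 higher and 2 lower were left, against 11 higher and 2 lower. Depth limits OS11G0539200, OS06G0696400 and OS04G0604300 most, with medians of 2, 7.5 and 12 counts per library.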

Other observations

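Libraries of 1 group that were high for one of 4 genes tended to be high for the others. Over the 48 deviations from group means of log2 CPM, XTH8 correlated with OS06G0697000 at 0.787, with OS06G0696600 at 0.713 and with OS11G0539200 at 0.671, and the other pairs of these 4 genes at 0.534 to 0.647. OS06G0696400 and OS04G0604300 correlated with the other members at -0.0877 to 0.238. Against 11396 genes, the deviations of XTH8 had a median correlation of 0.0124, with the middle 90% of genes between -0.544 and 0.562, and those of OS06G0697000 a median of 0.0297, between -0.62 and 0.652. The deviations share their libraries and group means, so no test was made.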
